A study of Mus musculus with 4 samples.

Results

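Glutathione enzymes were examined by subfamily in sorted mouse spermatogonia from control mice and from mice with a conditional deletion of *Cnot3* (*Cnot3*-cKO). The members were chosen by gene symbol and took in the glutathione transferases, the glutathione peroxidases, and the enzymes that make, break down and reduce glutathione. This gave 52 of the 54920 genes listed in each library. Of these, 45 had enough reads to be tested, among 23952 tested genes. The other 7 were *Gsta1*, *Gstp3*, *Gstt4*, *Gpx5*, *Gpx6*, *Ggt1* and *Ggt6*, with between 0 and 17 reads in any library.

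Glutathione is a tripeptide of glutamate, cysteine and glycine, and it is the main small thiol of animal cells. Glutamate-cysteine ligase and glutathione synthetase make it, transferases join it to electrophiles, peroxidases spend it on reducing peroxides, and glutathione reductase restores its reduced form with NADPH. In the testis these enzymes are found in germ cells and in the somatic cells that surround them, and Sertoli and Leydig cells are known for high transferase levels.

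Total RNA was sequenced from testis cells sorted for ID4-EGFP, a reporter that marks undifferentiated spermatogonia, at postnatal day 8. The 2 *Cnot3*-cKO libraries came from *Cnot3* flox/flox mice that carried Ddx4-creER and ID4-EGFP. The 2 control libraries, labelled wild-type, were described as carrying the floxed allele and the reporter without Ddx4-creER. Both groups had been injected with 4-OHT as pups, from postnatal day 1 to day 3. Ddx4-creER is a tamoxifen-inducible Cre driven by a germ cell promoter, so somatic cells keep *Cnot3*. The study describes its RNA-seq replicates as biological, with another number of replicates than the 2 libraries per group analysed here. The labels do not say which animals, or how many, each library holds. The p-values set the difference between groups against the spread between these libraries, estimated with information from all tested genes. That spread may be in part technical.

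Totals were 40957899 and 43378493 reads in the controls and 22192964 and 28019626 in the *Cnot3*-cKO libraries. *Cnot3* itself stood at 58.6 and 50.2 CPM (counts scaled to library size) in the controls and at 19.2 and 19.9 CPM in the *Cnot3*-cKO libraries, a log2 fold change of -1.48 ± 0.129 (SE). Of the markers of other cells, 10 of 12 Sertoli cell genes, 4 of 5 tested Leydig cell genes and 9 of 9 macrophage genes were called higher in *Cnot3*-cKO. By the same thresholds, given below, 4.03% of all tested genes were called higher. The summed Sertoli list was 244 and 237 CPM in the controls and 779 and 799 CPM in *Cnot3*-cKO. The Leydig list was 368 and 322 against 831 and 896 CPM, with *Insl3* at 0 in every library, and the macrophage list was 295 and 189 against 653 and 534 CPM. Of 9 pan-germ cell genes none was called, with sums of 5230 and 5651 against 4823 and 5109 CPM. The largest of them, *Dazl*, was at 2339 and 2634 against 2024 and 2263 CPM. *Sall4* was lower past the p threshold alone (log2 -0.42, adjusted p = 0.00656). Of 8 genes of undifferentiated spermatogonia 1, *Id4*, was called higher, and the list summed to 927 and 796 against 871 and 879 CPM. Within that list *Zbtb16* was lower (log2 -0.82, adjusted p = 1.93e-04) and *Gfra1* (0.90), *Bcl6b* (0.65) and *Etv5* (0.54) were higher past the p threshold alone. Peritubular myoid genes (13.6 and 16.2 against 19.95 and 24.9 CPM, 0 of 5 called), endothelial genes (23.4 and 21.01 against 35.1 and 40.4 CPM, 2 of 4 tested called higher), erythroid genes (8.14 and 7.75 against 10.1 and 19.4 CPM, 0 of 5 called) and mast cell genes (0.968 and 0.404 against 0.794 and 0.943 CPM, 0 of 1 tested called) were low. In bulk RNA, more cells of a type and more RNA per cell cannot be told apart. The part of these cells in the results on the glutathione enzymes was not tested.

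In *Cnot3*-cKO, 10 members rose and none fell. A call needed a Benjamini-Hochberg adjusted p under 0.01 in edgeR's quasi-likelihood test and a fold change above 2. The 10 were *Gstm1*, *Gstm2*, *Gstm6*, *Gstm7*, *Gstt2*, *Hpgds*, *Mgst1*, *Ptges*, *Gpx8* and *Glrx*. Over all tested genes 4.03% were called higher and 0.735% lower. Without the fold limit 12 members were higher and 1 was lower, against 6.21% and 4.70% of all tested genes. At an unadjusted p under 0.05, 21 members were higher and 4, *Gstm4*, *Gsr*, *Glrx3* and *Glrx5*, were lower, against 17.4% and 15.4% of all tested genes. The median log2 fold change over the 45 tested members was 0.31, with a range from -0.71 to 2.10, and the median over all tested genes was 0.0089.

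The calls lay mostly among the transferases. Of 24 tested transferases, counting the membrane-bound and sigma enzymes, 8 were called higher, with a median log2 fold change of 0.60. Of the 21 other tested members 2 were, with a median of 0.13. *Ptges* and *Hpgds*, both among the 8, make prostaglandins and were counted with the transferases by family. Within the transferases the mu class held 4 calls of 7 tested, the membrane-bound (MAPEG) family 2 of 4, theta 1 of 3, and omega, zeta and sigma together 1 of 4. The alpha, pi and kappa classes held 0 of 3, 0 of 2 and 0 of 1. Elsewhere the peroxidases held 1 of 6, the reduction group 1 of 5, breakdown 0 of 6 and synthesis 0 of 3. In 26 members both *Cnot3*-cKO libraries were above both controls, and in 7 both were below, where 30.5% and 28.6% of all tested genes showed the same.

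**Figure D1:**
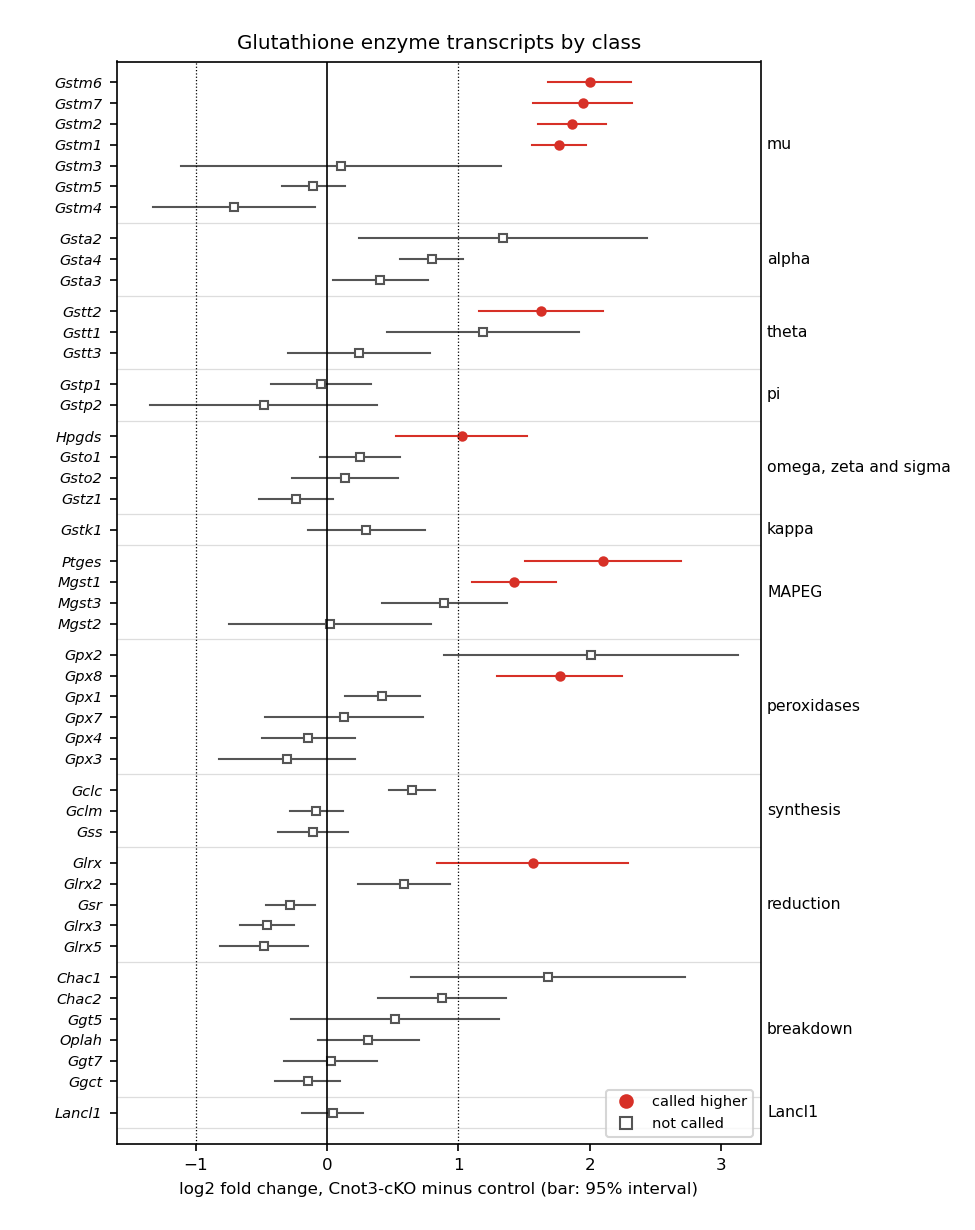
Log2 fold change (*Cnot3*-cKO against control) of the 45 tested members, grouped by class, with 95% confidence intervals from the edgeR fit. Filled red circles are the called genes and open squares the others. The 10 called members lie between 1.02 and 2.10, and 4 of them are mu class transferases.

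The median control level of the called members was 7.001 CPM, from 1.40 to 47.8 CPM, against 13.9 CPM, from 0.434 to 402 CPM, for the 35 members not called. The 10 summed to 152 and 134 CPM in the controls and to 513 and 467 CPM in *Cnot3*-cKO. The other 35 summed to 1307 and 1376 CPM against 1419 and 1397 CPM. The members were split by the call itself, so the rise of the first sum follows from the split.

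Per kilobase of gene model, the highest control levels were those of *Gsr* (146 CPM per kb), *Gstm5* (55.7), *Gclc* (53.4) and *Gstm1* (32.5). In *Cnot3*-cKO the order of the first 4 was *Gsr* (120 CPM per kb), *Gstm1* (110), *Gclc* (83.5) and *Gstm2* (78.7). Summed by class, reduction was the largest group in the controls, at 162 and 179 CPM per kb, ahead of the mu class at 132 and 124. In *Cnot3*-cKO the mu class was first, at 323 and 278 CPM per kb, ahead of reduction at 134 and 145. The mu class thus made up 24.5% and 22.4% of the summed members in the controls and 40.2% and 36.5% in *Cnot3*-cKO.

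**Figure D2:**
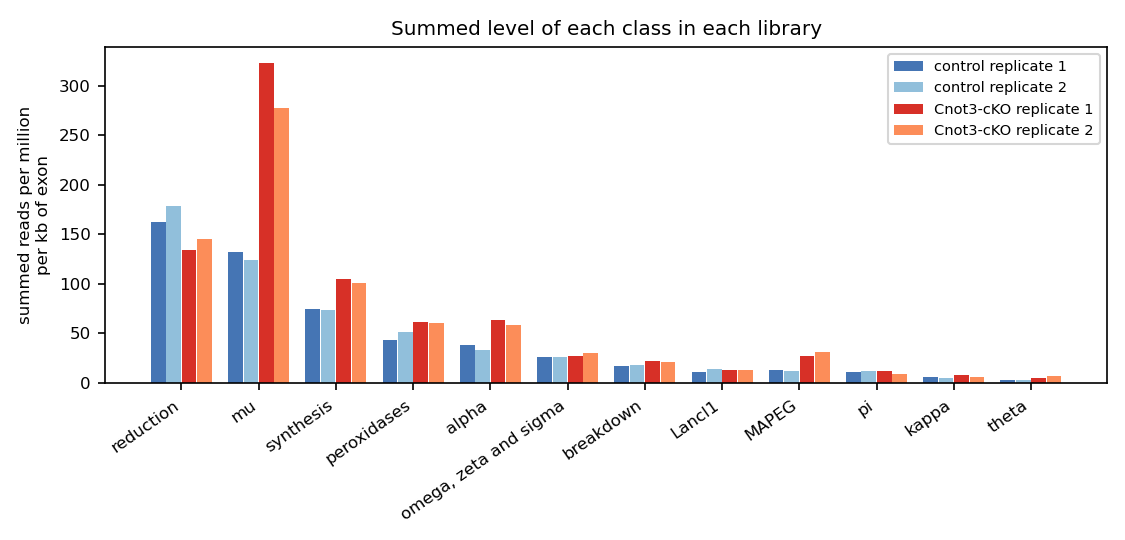
Summed level of each class in CPM per kilobase in each of the 4 libraries (bars, linear axis from 0). The mu class goes from 132 and 124 in the controls to 323 and 278 in *Cnot3*-cKO, while reduction goes from 162 and 179 to 134 and 145.

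The mu class transferases conjugate glutathione to a broad range of electrophiles, and their 7 genes stand side by side on chromosome 3. On GRCm38 the cluster runs from 107895821 to 108044894, over 149.1 kb, in the order *Gstm5*, *Gstm7*, *Gstm6*, *Gstm3*, *Gstm2*, *Gstm1* and *Gstm4*. *Gstm5* is on the plus strand and the other 6 are on the minus strand. The 4 called genes, *Gstm7*, *Gstm6*, *Gstm2* and *Gstm1*, lie in the middle of the cluster with *Gstm3* among them.

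*Gstm1*, the most abundant of the called members, was at 48.4 and 47.2 CPM in the controls and at 170 and 155 CPM in *Cnot3*-cKO. Its log2 fold change was 1.76 ± 0.0957 (SE; adjusted p = 8.71e-07). *Gstm2* went from 39.8 and 32.9 CPM to 142 and 122 CPM (log2 1.86 ± 0.119, adjusted p = 1.91e-06). All 4 libraries fell into separate groups for both genes, with replicates of a group close together. In 30.5% of all tested genes both *Cnot3*-cKO libraries were above both controls. *Gstm6* went from 22.5 and 18.4 to 92.2 and 71.8 CPM (log2 2.0004 ± 0.145, adjusted p = 3.77e-06), and *Gstm7* from 6.43 and 6.80 to 27.9 and 23.1 CPM (log2 1.94 ± 0.172, adjusted p = 1.62e-05). The 4 changes lay between 1.76 and 2.0004, although the control levels differed several-fold.

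The other 3 mu genes were not called. *Gstm5*, the brain and testis type and the most abundant mu gene in the controls, was at 71.2 and 71.1 CPM against 72.1 and 60.4 CPM (log2 -0.10, 95% interval -0.34 to 0.13, adjusted p = 0.572). *Gstm4* was at 6.21 and 3.99 against 3.18 and 3.07 CPM, with no overlap between groups, and its log2 fold change of -0.71 missed the threshold (adjusted p = 0.102). *Gstm3* had 30 and 25 reads in the controls and 16 and 21 in *Cnot3*-cKO, with an interval from -1.11 to 1.32 on the log2 scale. *Gstm5* thus made up 42.3% and 45.0% of the mu class per kilobase in the controls and 17.5% and 17.0% in *Cnot3*-cKO, while *Gstm1* went from 24.9% and 25.9% to 35.8% and 37.8%. The ratio of *Gstm1* to *Gstm5* reads was 0.680 and 0.664 in the controls and 2.36 and 2.56 in *Cnot3*-cKO. An exact permutation test on this ratio gave p = 0.333, two-sided, which is the smallest p that 2 libraries against 2 allow.

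**Figure D3:**
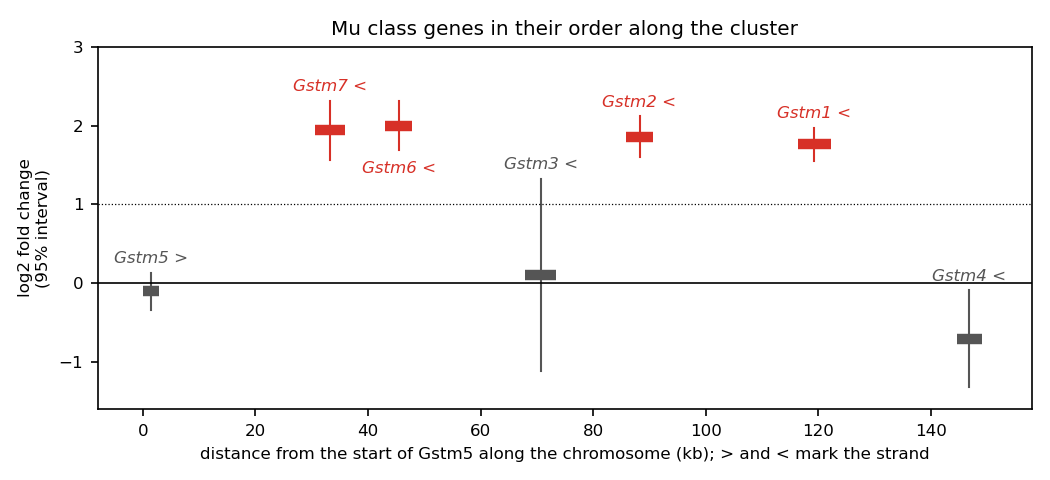
Log2 fold change of the 7 mu class genes against distance along their cluster on chromosome 3, with 95% confidence intervals from the edgeR fit. *Gstm7*, *Gstm6*, *Gstm2* and *Gstm1* lie between 1.76 and 2.0004, and *Gstm5*, *Gstm3* and *Gstm4* at -0.10, 0.11 and -0.71.

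Mu genes are alike in sequence, which bears on how reads are given to each. Of the 50-base stretches in *Gstm1* transcripts, 18.9% also occur in another gene, and 14.1% occur in the pseudogene *Gstm2-ps1*. The share was 28.8% for *Gstm3*, 9.44% for *Gstm5*, 5.97% for *Gstm6*, 5.65% for *Gstm2* and 0.532% for *Gstm7*. Nearly all such stretches of *Gstm7* and *Gstm6* were their own, and the level of *Gstm3* is uncertain. Among the other members, sharing was high for *Gsta1* (90.5%), *Gstp2* (54.3%), *Gsta2* (49.8%), *Gpx4* (34.7%) and *Gstp1* (33.7%), whose levels are uncertain too. For *Glrx3* the share was 15.1%, and 14.7% of its stretches occur in *Gm12669*.

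Several glutathione genes are known targets of NRF2, which binds antioxidant response elements, so promoter windows from 250 bases before to 50 bases after the start were searched. RefSeq windows on GRCm38.p6 were given for 46 of the 52 members, and the core element TGACNNNGC was sought on both strands. It was in at least 1 window of 7 of the 46 (15.2%) and of 14% of 27025 genes in all. Of the 9 called members with a window, 2 held it, *Gstm7* and *Mgst1*. Of the 30 tested members with a window that were not called, 4 held it, *Gclm*, *Ggct*, *Gsta3* and *Gstm5*. The windows of *Gstm7* and *Mgst1* are shown beside those of *Gstm5* and *Gclm* because the element is found in genes that rose and in genes that were not called. Capitals mark the element or, for *Mgst1* and *Gclm*, its reverse complement. They stand at chr3:107931565-107931864 (minus strand), chr6:138140277-138140576, chr3:107895604-107895903 and chr3:122245307-122245606 (plus strand).
Gstm7: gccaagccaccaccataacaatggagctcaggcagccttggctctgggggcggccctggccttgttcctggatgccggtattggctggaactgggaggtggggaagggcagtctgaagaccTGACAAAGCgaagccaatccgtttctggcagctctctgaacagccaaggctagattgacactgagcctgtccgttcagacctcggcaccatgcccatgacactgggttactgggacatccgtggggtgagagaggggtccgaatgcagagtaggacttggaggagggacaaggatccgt
Mgst1: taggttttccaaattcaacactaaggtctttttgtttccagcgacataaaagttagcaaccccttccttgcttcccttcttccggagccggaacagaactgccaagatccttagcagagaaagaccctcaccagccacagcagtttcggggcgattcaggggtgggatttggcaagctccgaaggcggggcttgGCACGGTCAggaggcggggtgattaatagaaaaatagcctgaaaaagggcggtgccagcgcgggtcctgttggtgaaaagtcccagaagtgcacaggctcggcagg
Gstm5: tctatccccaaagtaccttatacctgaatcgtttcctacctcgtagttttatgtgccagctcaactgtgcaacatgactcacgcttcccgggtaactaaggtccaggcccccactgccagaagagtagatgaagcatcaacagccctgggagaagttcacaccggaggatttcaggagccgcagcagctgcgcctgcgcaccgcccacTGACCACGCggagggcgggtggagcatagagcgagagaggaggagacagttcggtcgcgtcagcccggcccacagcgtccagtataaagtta
Gclm: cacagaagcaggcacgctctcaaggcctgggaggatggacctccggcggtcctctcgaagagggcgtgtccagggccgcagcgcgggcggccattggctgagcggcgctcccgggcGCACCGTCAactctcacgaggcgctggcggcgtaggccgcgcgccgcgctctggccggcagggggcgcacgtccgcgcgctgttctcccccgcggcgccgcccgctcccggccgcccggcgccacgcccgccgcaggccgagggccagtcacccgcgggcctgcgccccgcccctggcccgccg
The element begins at -129, -56, -42 and -134 bases from the start in this order. *Gstm7* and *Mgst1* each have a second listed start whose window does not hold the element, and for both genes the element shown lies inside the GENCODE gene model, downstream of its 5′ end. A match is a description of the letters and not of binding.

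Markers of somatic cells moved beside the called transferases. Most of the summed Sertoli list came from *Clu*, at 152 and 145 CPM in the controls and 479 and 479 CPM in *Cnot3*-cKO. Log2 fold changes within that list ran from 0.18 (*Rhox5*) to 2.62 (*Amh*), with *Clu* at 1.69. Most of the Leydig list came from *Hsd3b1*, at 287 and 248 against 656 and 712 CPM. *Gstm1* was 19.8% and 19.9% of the summed Sertoli list in the controls and 21.9% and 19.3% in *Cnot3*-cKO. *Gstm2* was 16.3% and 13.9% against 18.2% and 15.3%, and *Gpx8* was 1.36% and 1.22% against 1.34% and 1.35%. For these 3 genes, and for *Gstm6*, *Glrx* and *Gstt2*, the groups overlapped on this scale, whereas they did not overlap in CPM. The Sertoli sum was itself 3.24 and 3.32 times the control mean in *Cnot3*-cKO. Any gene that rose about as much must therefore stay near its control share on this scale. The share of all tested genes that overlap on it was not computed. Set against the Leydig list (*Gstm1* 13.2% and 14.6% against 20.5% and 17.3%) or the macrophage list (*Gstm1* 16.4% and 25.1% against 26.1% and 28.9%), *Gstm1*, *Gstm2*, *Gstm6*, *Gstm7* and *Gpx8* were higher in both *Cnot3*-cKO libraries than in both controls. As a share of the Sertoli list *Gstm7* (2.63% and 2.86% against 3.58% and 2.89%) and *Ptges* (0.752% and 0.831% against 0.850% and 1.21%) were higher than both controls too. *Mgst1* was lower, at 6.21% and 5.79% against 4.48% and 5.33%, and so was *Hpgds*, at 3.77% and 2.34% against 1.91% and 1.90%. *Hpgds*, set against the macrophage list, was 3.12% and 2.95% against 2.28% and 2.84%. These ratios were chosen after the values were seen and carry no test.

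**Figure D4:**
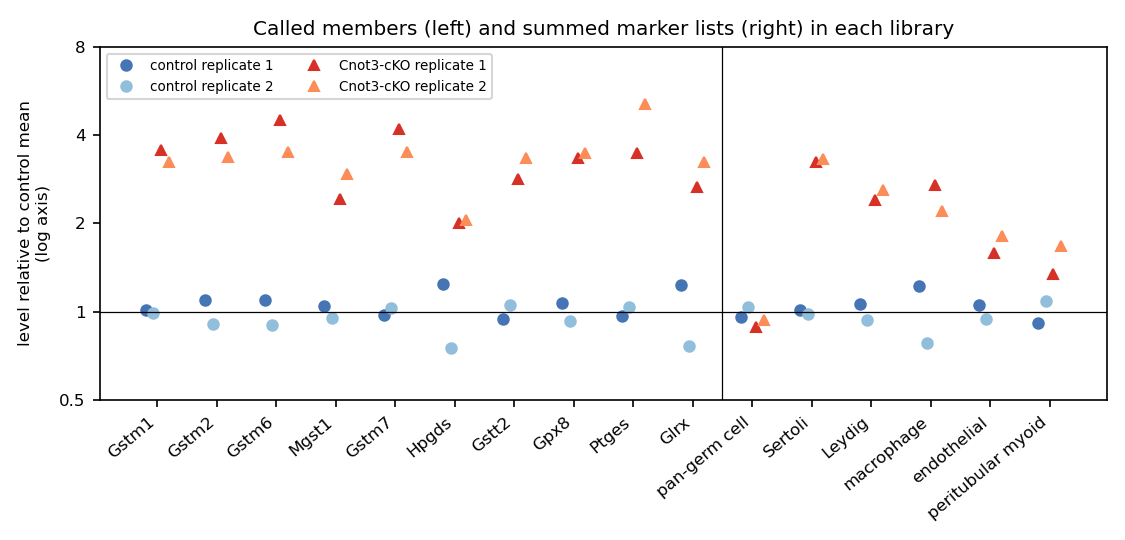
Level of the 10 called members (left) and of summed marker lists (right) in each of the 4 libraries, divided by the control mean, on a log axis. In the *Cnot3*-cKO libraries *Gstm1* lies at 3.56 and 3.23 times the control mean, the Sertoli list at 3.24 and 3.32 times and the pan-germ cell list at 0.887 and 0.939 times. Most of the Sertoli sum is *Clu*.

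The membrane-bound MAPEG enzymes reduce or conjugate lipid substrates, and among them *Ptges* makes prostaglandin E2. *Ptges* was at 1.84 and 1.97 CPM in the controls and at 6.62 and 9.71 CPM in *Cnot3*-cKO, with a log2 fold change of 2.10 ± 0.272 (adjusted p = 2.49e-04), the largest among the members. *Mgst1*, a microsomal transferase and peroxidase, went from 15.2 and 13.7 to 34.9 and 42.6 CPM (log2 1.42 ± 0.148, adjusted p = 5.41e-05). Both genes had *Cnot3*-cKO libraries above both controls, as did 30.5% of all tested genes. *Mgst3* was at 4.20 and 4.56 against 8.25 and 8.03 CPM and its log2 value of 0.89 missed both thresholds (adjusted p = 0.0119). *Mgst2* was at 3.25 and 1.78 against 2.82 and 2.30 CPM, with overlapping groups (log2 0.02, adjusted p = 0.975). The 4 enzymes together held 12.7 and 11.97 CPM per kb in the controls and 27.3 and 31.6 in *Cnot3*-cKO.

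Theta transferases, which act on small halogenated and sulfate substrates, form a cluster of 4 genes over 63.3 kb on chromosome 10. *Gstt2* was at 3.43 and 3.80 CPM in the controls and at 10.3 and 12.1 CPM in *Cnot3*-cKO (log2 1.63 ± 0.217, adjusted p = 2.99e-04). *Gstt1* was at 1.19 and 1.74 against 3.05 and 3.63 CPM, and its log2 value of 1.19 missed the threshold (adjusted p = 0.025). *Gstt3*, the most abundant of the class in the controls by CPM, was at 4.25 and 4.04 against 4.37 and 5.41 CPM (log2 0.24, adjusted p = 0.558). *Gstt4* had 1 and 2 reads against 0 and 0.

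*Hpgds*, the sigma class enzyme that makes prostaglandin D2, was at 9.21 and 5.56 CPM in the controls and at 14.9 and 15.2 CPM in *Cnot3*-cKO. Its log2 fold change of 1.02 ± 0.23 was just past the fold limit (adjusted p = 0.00759). Without control replicate 2 the value was 0.69 and the call was lost (adjusted p = 0.0121). The omega enzyme *Gsto1*, a thioltransferase and dehydroascorbate reductase, was at 28.01 and 29.3 against 30.2 and 37.9 CPM (log2 0.25, adjusted p = 0.239). *Gstz1*, the zeta enzyme of tyrosine breakdown, was at 34.6 and 33.2 against 30.6 and 27.0 CPM (log2 -0.24, adjusted p = 0.231), and *Gsto2* was at 8.96 and 10.1 against 10.5 and 10.4 CPM.

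None of the alpha, pi and kappa genes was called. *Gsta4*, which detoxifies the lipid aldehyde 4-hydroxynonenal, was at 40.8 and 36.2 CPM in the controls and at 67.8 and 65.9 CPM in *Cnot3*-cKO. Its log2 fold change of 0.80 ± 0.11 passed the p threshold (adjusted p = 3.95e-04) but not the fold limit. *Gsta3* was at 20.4 and 18.4 against 29.7 and 21.8 CPM (log2 0.41, adjusted p = 0.109) and *Gsta2* at 1.89 and 0.52 against 3.80 and 2.34 CPM (log2 1.34, adjusted p = 0.0803). *Gsta2* ranged from 0.68 to 2.52 on the log2 scale when a library was left out, and it was called without control replicate 1 (2.52) and without *Cnot3*-cKO replicate 2 (1.66). In all 3 tested alpha genes both *Cnot3*-cKO libraries were above both controls, as in 30.5% of all tested genes. *Gstp1* was at 13.6 and 14.2 against 14.9 and 12.1 CPM (log2 -0.05, adjusted p = 0.895), *Gstp2* at 2.38 and 3.76 against 3.09 and 1.36 CPM, and the mitochondrial kappa enzyme *Gstk1* at 8.64 and 7.82 against 11.5 and 8.80 CPM (log2 0.30, adjusted p = 0.356). The groups overlapped for both pi genes.

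Among the peroxidases only *Gpx8* was called. *Gpx8*, a membrane protein of the endoplasmic reticulum with a cysteine in place of selenocysteine, was at 3.33 and 2.90 CPM in the controls and at 10.4 and 10.8 CPM in *Cnot3*-cKO (log2 1.77 ± 0.22, adjusted p = 1.90e-04). *Gpx7*, the related enzyme of the same compartment, was at 2.98 and 3.21 against 3.71 and 3.07 CPM (log2 0.13, 95% interval -0.48 to 0.73, adjusted p = 0.808). The ratio of *Gpx8* to *Gpx7* was 1.12 and 0.904 in the controls and 2.81 and 3.52 in *Cnot3*-cKO. The most abundant peroxidases were the selenoproteins *Gpx1* and *Gpx4*. *Gpx1*, which reduces hydrogen peroxide in the cytosol, was at 28.9 and 34.5 against 45.0 and 40.1 CPM (log2 0.42, adjusted p = 0.0388), and *Gpx4*, which reduces lipid hydroperoxides, was at 24.2 and 33.5 against 24.7 and 27.5 CPM (log2 -0.14, 95% interval -0.50 to 0.21). *Gpx3*, the secreted enzyme, was at 7.15 and 5.75 against 4.59 and 5.83 CPM, and *Gpx2* had 12 and 24 reads against 42 and 48 (log2 2.01, adjusted p = 0.0153).

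In synthesis the catalytic and regulatory subunits of glutamate-cysteine ligase differed in their values. *Gclc*, the catalytic subunit of the rate-limiting step, was at 204 and 199 CPM in the controls and at 323 and 306 CPM in *Cnot3*-cKO. Its log2 fold change was 0.64 ± 0.0802 (95% interval 0.47 to 0.82, adjusted p = 1.93e-04), which is under the fold limit. *Gclm*, the regulatory subunit, was at 94.2 and 90.4 against 86.0 and 88.5 CPM (log2 -0.08, interval -0.28 to 0.12), and *Gss*, glutathione synthetase, was at 34.8 and 37.6 against 35.3 and 31.9 CPM (log2 -0.11, adjusted p = 0.606). *Gclc* was the one synthesis gene whose interval lay away from 0. *Gclc* exceeded *Gclm* by 2.16 and 2.20 times in the controls and by 3.75 and 3.46 times in *Cnot3*-cKO, in reads not corrected for length, and exceeded *Gss* by 5.86 and 5.28 times against 9.15 and 9.60 times. The sign of *Gclm*, *Gss*, *Gstm5* and *Gstp1* turned when libraries were scaled on the pan-germ cell genes, which moves the median of all genes to 0.14.

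**Figure D5:**
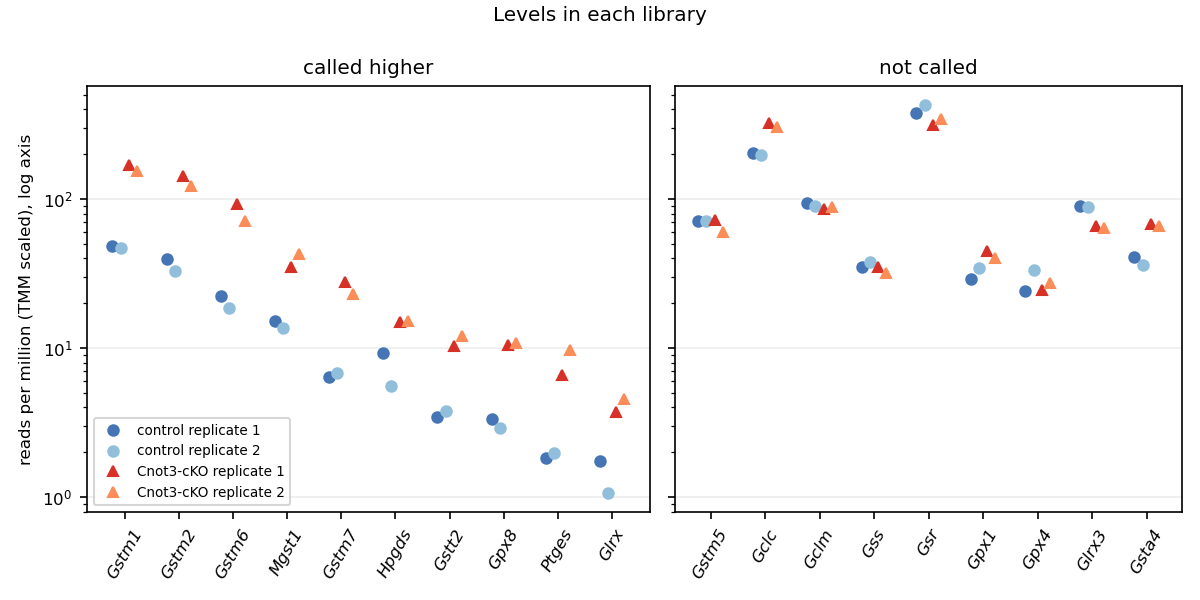
CPM in each of the 4 libraries on a log axis, for the 10 called members (left panel) and 9 members that were not called (right panel). *Gclc* lies at 204 and 199 in the controls and at 323 and 306 in *Cnot3*-cKO, and *Gclm* at 94.2 and 90.4 against 86.0 and 88.5.

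No breakdown enzyme was called. *Chac2*, a cytosolic gamma-glutamylcyclotransferase that acts on glutathione, was at 5.02 and 4.02 CPM in the controls and at 8.43 and 8.14 CPM in *Cnot3*-cKO (log2 0.87, adjusted p = 0.0157). *Chac1*, a related enzyme induced in the unfolded protein response, had 26 and 19 reads against 34 and 58, or 0.65 and 0.45 against 1.501 and 2.03 CPM (log2 1.68, adjusted p = 0.0255). Both genes had the *Cnot3*-cKO libraries above both controls, as did 30.5% of all tested genes. *Ggct*, the most abundant of the group, was at 42.7 and 45.3 against 41.3 and 38.3 CPM (log2 -0.15, adjusted p = 0.423) and *Oplah*, which returns 5-oxoproline to glutamate, at 16.5 and 23.6 against 26.6 and 23.3 CPM (log2 0.31, adjusted p = 0.246). *Ggt7* was at 13.6 and 14.1 against 14.3 and 14.0 CPM, and *Ggt5*, which cleaves extracellular glutathione conjugates, at 2.06 and 1.26 against 2.34 and 2.41 CPM.

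The reduction group held values in both directions. *Gsr*, glutathione reductase, was the most abundant member, at 378 and 425 CPM in the controls and at 316 and 346 CPM in *Cnot3*-cKO (log2 -0.28, 95% interval -0.47 to -0.09, adjusted p = 0.0391). *Glrx3*, a monothiol glutaredoxin of iron handling, was at 90.0 and 88.3 against 65.9 and 64.1 CPM (log2 -0.46 ± 0.095, adjusted p = 0.00509), the one member lower past the p threshold, with no fold above 2. *Glrx5*, which serves mitochondrial iron-sulfur clusters, was at 19.04 and 19.3 against 13.5 and 14.0 CPM (log2 -0.48, adjusted p = 0.0445). In these 3 genes both *Cnot3*-cKO libraries were below both controls, as in 28.6% of all tested genes. *Glrx*, the cytosolic dithiol glutaredoxin, went the other way, from 1.74 and 1.07 CPM to 3.75 and 4.54 CPM (log2 1.56 ± 0.335, adjusted p = 0.00585), and without control replicate 2 the value was 1.24 and the call was lost (adjusted p = 0.0119). *Glrx2*, the mitochondrial and nuclear form, was at 12.8 and 11.5 against 18.1 and 18.3 CPM (log2 0.58, adjusted p = 0.0229). *Lancl1*, a glutathione-binding protein, was at 80.1 and 96.8 against 90.8 and 91.2 CPM (log2 0.04, 95% interval -0.19 to 0.27).

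Of 54 further genes of glutathione metabolism and its supply, all tested, 3 rose and 1 fell, where 4.03% and 0.735% of all tested genes did, and the median change over the 54 was 0.14 on the log2 scale. Without the fold limit 10 were higher and 4 lower, against 6.21% and 4.70% of all tested genes. *Me1*, the malic enzyme that makes NADPH, went from 72.8 to 165 CPM on average (log2 1.18), *Nqo1*, a quinone reductase and a classical NRF2 target, from 3.61 to 11.2 CPM (log2 1.63) and *Abcc3*, an exporter of conjugates, from 7.79 to 16.1 CPM (log2 1.04). *Anpep*, a peptidase that acts on the products of gamma-glutamyl transfer, fell from 14.9 to 6.69 CPM (log2 -1.15). The regulators themselves were not called. *Nfe2l2*, which encodes NRF2, was at 104 against 105 CPM (log2 0.01), *Keap1* had a log2 fold change of 0.07 and *Bach1* of 0.01. *Txnrd1*, the thioredoxin reductase, had a log2 fold change of 0.49 (adjusted p = 0.00121), under the fold limit. Of the cysteine suppliers 0 of 7 were called, with a median log2 fold change of -0.0086. The most abundant of them, *Slc3a2*, was at 167 against 160 CPM (log2 -0.06). *Slc7a11* was at 2.08 against 4.97 CPM (log2 1.26, adjusted p = 0.0131) and *Slc1a4* at 14.4 against 9.35 CPM (log2 -0.62, adjusted p = 0.0266). In the other sections the most abundant genes were *Adh5* (log2 0.40, adjusted p = 0.0065), *Abcc1* (206 against 187 CPM), *Ptges3* (238 against 232 CPM), *Eef1g* (273 against 274 CPM) and *Secisbp2* (61.8 against 58.0 CPM), none of them called.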

How the data were processed

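RNA was extracted from sorted ID4-EGFP+ cells and made into libraries with a stranded total RNA kit. Reads under a mean Phred quality of 20 were dropped by the authors, who then used STAR with mm10 and featureCounts with GENCODE M24. The deposited values are raw read counts per gene symbol. How featureCounts treated strand and multimapping reads is not given in the sources used here. The floor of 3 counts (0.0713 to 0.132 CPM) covers counting error only, and intervals of fold changes come from the fitted spread between libraries.

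*Cnot3*-cKO was compared with control, without covariates, in edgeR 4.0.16 (R 4.3.3) with TMM scaling, the default expression filter, the quasi-likelihood F test and Benjamini-Hochberg adjustment over all 23952 tested genes. CPM used TMM-scaled library sizes. The authors used an earlier release of DESeq2, and DESeq2 1.42.0 was an alternative here, along with other scalings, filters, thresholds, a replicate block and leaving out each library. Members and lists were chosen with earlier results of these data known. Per-library values were given for the called members, those the study measured by RT-qPCR, the 2 most abundant of each class, and those past the p threshold alone. Other members were given more briefly. Cell type lists (pan-germ, undifferentiated spermatogonia, Sertoli, Leydig, macrophage, peritubular myoid, endothelial, mast, erythroid) and the 54 other pathway genes were described by counts and sums. Gene models and shared 50-base stretches came from GENCODE M21 on GRCm38. Scripts were tested on simulated data.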

Additional observations from a re-analysis of the deposited data

How the results depend on the processing

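All alternatives left *Cnot3* lower and between 9 and 13 members called higher. Of the 10 calls, *Hpgds* was lost with upper quartile scaling, without an expression filter and without control replicate 2, and *Glrx* without control replicate 2. The other 8 kept their call under every alternative. No member was called lower except *Glrx3* when no fold limit was set (1 lower). Gained calls included *Gsta2*, *Gpx2*, *Chac1*, *Gstt1*, *Chac2* and *Mgst3*. Leaving out control replicate 1 gained *Gsta2* and *Chac2* (1.03), control replicate 2 *Gstt1* (1.47) and *Gpx2* (2.54), and *Cnot3*-cKO replicate 2 *Gsta2*. Over all genes, the higher calls were 1452 at an adjusted p under 0.05 and 1488 with no fold limit. The lower calls were 105 with pan-germ cell scaling, 285 without a filter, 284 at an adjusted p under 0.05, 1125 with no fold limit, and 217 to 271 when a library was left out.

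Replicate numbers are shared by the groups. With the number as a replicate block, 12 members were called higher, and 1155 genes higher and 217 lower over all. The correlation of deviations from the group means between same-numbered libraries was 0.117 over 12475 genes. With 2 pairs this shows no more than a shared number.

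Pan-germ cell scaling gave *Gstm5* 0.030, *Gstp1* 0.089, *Gclm* 0.047 and *Gss* 0.026, and library size alone gave *Gstp1* 0.019. Without a filter *Ggt7* was -0.000757 and *Mgst2* -0.0029. When a library was left out, the signs of small values turned: *Ggt7* ranged from -0.0145 to 0.0423, *Lancl1* from -0.10 to 0.17, *Mgst2* from -0.36 to 0.50, *Gstm5* from -0.25 to 0.015, *Gstm3* from -0.060 to 0.26, *Gpx4* from -0.37 to 0.098, *Gpx7* from -0.020 to 0.26, *Gstp1* from -0.22 to 0.097 and *Gstp2* from -1.18 to 0.0025. The cause was not tested.

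Class medians moved as follows. Pan-germ cell scaling gave 0.32 for omega, zeta and sigma, 0.41 for peroxidases, 0.047 for synthesis, 0.55 for breakdown, -0.15 for reduction and 0.46 for all members. Library size alone gave 0.26 for omega, zeta and sigma, -0.016 for synthesis, 0.48 for breakdown and -0.21 for reduction. Upper quartile scaling gave -0.043 for synthesis and -0.24 for reduction. No filter gave 0.69 for theta, 0.58 for breakdown and -0.31 for reduction, and a mean count of at least 50 gave 0.35 for breakdown and -0.25 for reduction. Without 1 library, the medians ranged from -0.70 to 0.050 for pi, 0.93 to 1.47 for theta, 0.10 to 0.26 for omega, zeta and sigma, -0.070 to -0.042 for synthesis, 0.40 to 0.71 for breakdown, -0.38 to -0.20 for reduction and 0.30 to 0.44 for all members. With 2 libraries a group, genes with few reads, such as *Gstm3*, *Gpx2* and *Chac1*, have wide intervals.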
